A study of Macaca fascicularis with 2 samples.

Results

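Sertoli cells of a monkey testis held in the abdomen were described from single-cell RNA. They were chosen by measured marker counts, as the barcodes of the abdominal library with at least 500 detected genes and a UMI of at least 3 of the 7 markers AMH, FATE1, CITED1, SOX9, CLDN11, DEFB119 and INHA. AMH, FATE1, CITED1 and INHA together had to reach 10 per 10000 UMIs, and INSL3, the Leydig cell hormone, had to stay under 50 per 10000. A UMI is 1 counted RNA molecule. The rule kept 803 of 12352 barcodes of that library (6.50%, exact Clopper-Pearson 95% interval 6.07 to 6.95), and the series held 28516 barcodes in all.

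The samples were testis of the cynomolgus monkey (Macaca fascicularis). One group was the testis kept unilaterally in the abdomen (UAT), a surgical form of cryptorchidism, and the other was the contralateral scrotal testis (CST). There was 1 library for each, with 111047299 UMIs in UAT and 197225937 UMIs in CST, and neither the number and age of the animals nor the time in the abdomen was given in the sources used here. Both tissues were digested with collagenase and dispase at 37 °C for up to 30 min before droplet capture, and nothing in the labels sets the tubule and the interstitium apart. The same rule found 67 of 15001 barcodes in CST (0.447%, 0.346 to 0.567), a library in which 11645 barcodes fell into the spermatid marker group.

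Sertoli cells line the seminiferous tubule and surround the developing germ cells. They answer to follicle-stimulating hormone and androgen, secrete inhibin and anti-Müllerian hormone, feed germ cells with lactate, engulf dying ones and seal the tubule with the blood-testis barrier. Before puberty they divide and make much AMH, and at puberty they stop dividing, lower AMH and build the barrier. In a testis outside the scrotum they work at core body temperature, and germ cells are lost around them.

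Levels are in CPM, a gene's UMIs summed over a group of cells and scaled to the group's total UMIs. Ratios carry exact conditional binomial 95% intervals, which hold the error of counting UMIs and no variation from animal to animal. With 1 library per position there was no test, and a feature is called higher or lower when it stood at 20 CPM or more in either group, differed at least 2-fold and had an interval that left out 1.

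The 7 markers that chose the cells were strongly present, which the rule itself fixed. FATE1, a membrane protein of the endoplasmic reticulum, stood at 1321 CPM in the Sertoli cells and 18.3 CPM in the other UAT barcodes. INHA, the inhibin alpha chain, stood at 1236 against 19.5 CPM, and AMH at 652 against 5.23 CPM. CITED1, a transcriptional coregulator, had 865 against 11.6 CPM, and SOX9, the testis-determining transcription factor downstream of SRY, had 400 against 9.52 CPM. CLDN11, the tight junction claudin of Sertoli cells, had 670 against 16.0 CPM, and DEFB119, a beta-defensin, 961 against 44.3 CPM.

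All 7 markers had a UMI in 420 of the 803 cells, 6 in 143, 5 in 115, 4 in 77 and 3 in 48. The median depth went with these classes, at 26243.5, 3244, 1805, 1220 and 976 UMIs. FATE1 was found in 93.8% of cells and AMH in 71.9%. In cells thinned to 2000 UMIs, CITED1 had a UMI in 78.7% of 597 Sertoli cells and in 2.45% of 2000 other UAT barcodes, and FATE1 in 86.8% against 3.90%. The 206 shallower Sertoli cells were left out of that count. Per cell, AMH had a 10th percentile of 0, a median of 4.09 and a 90th percentile of 11.9 per 10000 UMIs, whereas FATE1 had 3.05, 14.7 and 30.9.

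The summed AMH, FATE1, CITED1 and INHA had a median of 42.8 per 10000 UMIs in the members, with 19.7 and 68.3 at the 10th and 90th percentiles, against a median of 0 and a 99th percentile of 8.43 in the other barcodes. The lowest cell inside had 10.0 per 10000 and the highest outside 9.95. There were 22 cells between 10 and 12 inside, and 22 cells between 8 and 10 with enough markers outside. Another 47 barcodes reached the sum with only 2 markers, 359 had 3 or more markers but too low a sum, and 5 were lost to INSL3. In all, 50 barcode sequences occurred in both libraries, and 2 of the 803 cells carried one of them.

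The Sertoli cells fell into a deep and a shallow range of UMIs. Their median was 5631 UMIs and 2559 genes, with 1072 UMIs at the 10th percentile and 38759 at the 90th, against a median of 7297 UMIs and 2908 genes in the other UAT barcodes. Of the 803 cells, 337 had at least 10000 UMIs, 84 had 5000 to 10000 and 382 had under 5000. The 337 deep cells held 10770615 of the 12145788 Sertoli UMIs, so summed values follow them. Mitochondrial UMIs made up a median of 19.2% in the deep cells (8.61% to 32.2% at the 10th and 90th percentiles) and 2.59% in the shallow cells (0.672% to 8.57%), against 5.75% in the other UAT barcodes. A simulated-doublet score marked 65 of the 337 deep, 18 of the 84 middle and 2 of the 382 shallow cells. In all it marked 85 of 803 (10.6%, against 9.89% of the library). The deep and the middle cells lay above the library share and the shallow cells below it.

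**Figure D1:**
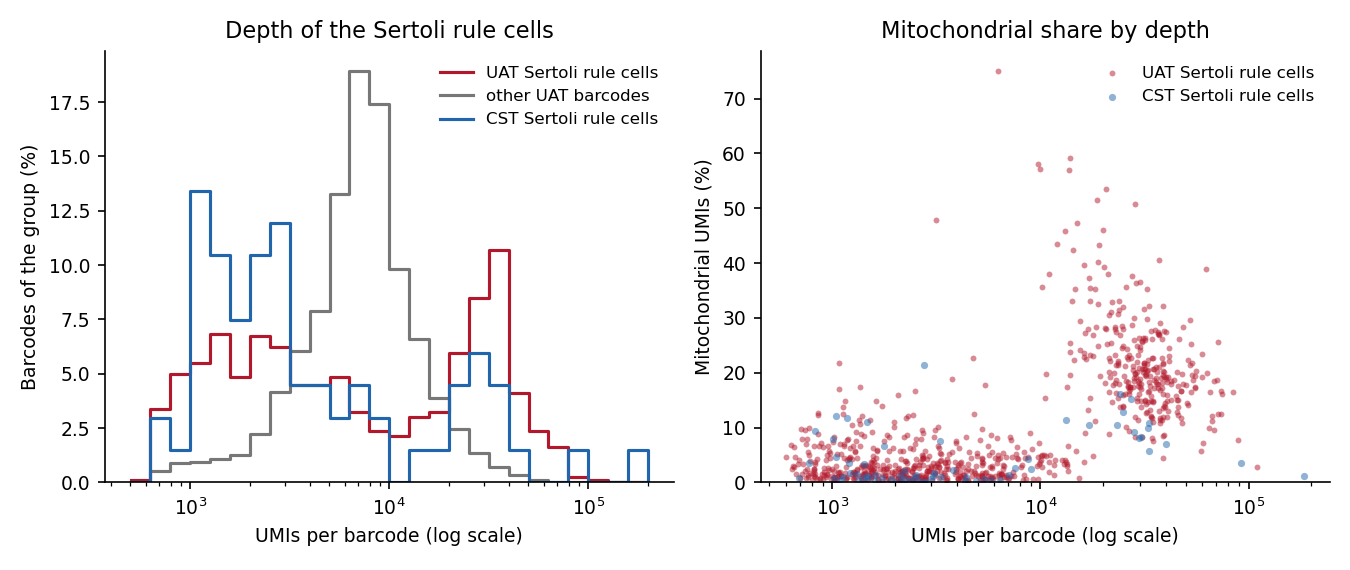
Left, share of barcodes (%) by UMIs per barcode on a log scale for the UAT Sertoli cells, the other UAT barcodes and the CST cells under the same rule. Right, each point is 1 rule cell, with its mitochondrial UMIs (%) against its UMIs on a log scale. The UAT Sertoli cells form a shallow and a deep hump on either side of the peak of the other UAT barcodes, and cells with 10000 UMIs or more carry a median of 19.2% mitochondrial UMIs.

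Against the other UAT barcodes, 1443 of 8309 features were called higher (17.4%) and 2131 lower (25.6%), and 286 were at least 10-fold higher, 261 of them with a gene symbol. This contrast chose the cells, so its counts are a description. CCK, the peptide hormone cholecystokinin of gut and brain, stood at 2431 CPM in Sertoli cells and 36.7 CPM in the rest (66.3-fold, 64.0 to 68.6), and 96.1% of Sertoli cells had a UMI of it. SPINK2, a Kazal-type serine protease inhibitor best known from germ cells, stood at 3558 against 64.4 CPM, and the UAT spermatogonia group had 120 CPM.

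WFDC8, a whey-acidic-protein type protease inhibitor, had 384 against 5.39 CPM, DEFB123, a beta-defensin, 544 against 8.12 CPM, and LCN2, the siderophore-binding lipocalin, 789 against 13.8 CPM. SCG5, a chaperone of the neuroendocrine secretory pathway, had 935 against 14.4 CPM, and CRHBP, which binds corticotropin-releasing hormone, 281 against 5.44 CPM. VTN, the adhesive plasma protein vitronectin, had 297 against 5.24 CPM.

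MS4A3, a membrane-spanning protein known from myeloid cells, had the highest ratio among the leading genes outside the rule, with 527 against 6.48 CPM (81.3-fold). The macrophage complement gene C1QC had 9.88 against 171 CPM. Of the 8 macrophage markers, MRC1 alone stood higher in Sertoli cells, at 145 against 65.0 CPM (2.23-fold, 2.12 to 2.35). SLC7A4, of the cationic amino acid transporter family, had 161 against 2.13 CPM, and SLC52A3, a riboflavin transporter, 180 against 2.83 CPM. REEP6, which shapes the endoplasmic reticulum, had 820 against 13.3 CPM. VSIG1, an adhesion protein, AARD, CLEC12B, SEPT14, TMPRSS9 and the homeobox gene NKX2-8 were others, between 103 and 372 CPM in Sertoli cells and between 1.41 and 5.63 CPM in the rest.

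At the other end, DCN, a proteoglycan of stroma, stood at 538 CPM in Sertoli cells and 7576 CPM in the rest, the growth factor IGF1 at 134 against 2017 CPM, VCAN at 11.1 against 252 CPM and LYZ at 33.5 against 574 CPM. In all, 453 features were at least 10-fold lower.

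Features without a symbol were as prominent as named genes. LOC102119445 stood at 5798 CPM in Sertoli cells and 89.7 CPM in the rest, LOC102146887 at 3963 against 64.7 CPM, LOC102136705 at 3910 against 65.9 CPM and LOC102128520 at 3676 against 65.6 CPM. Each was found in at least 96.8% of the cells, close to the share of SPINK2 (98.9%). No gene name was given to them, because the reference used here does not annotate these numbers with a symbol.

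**Figure D2:**
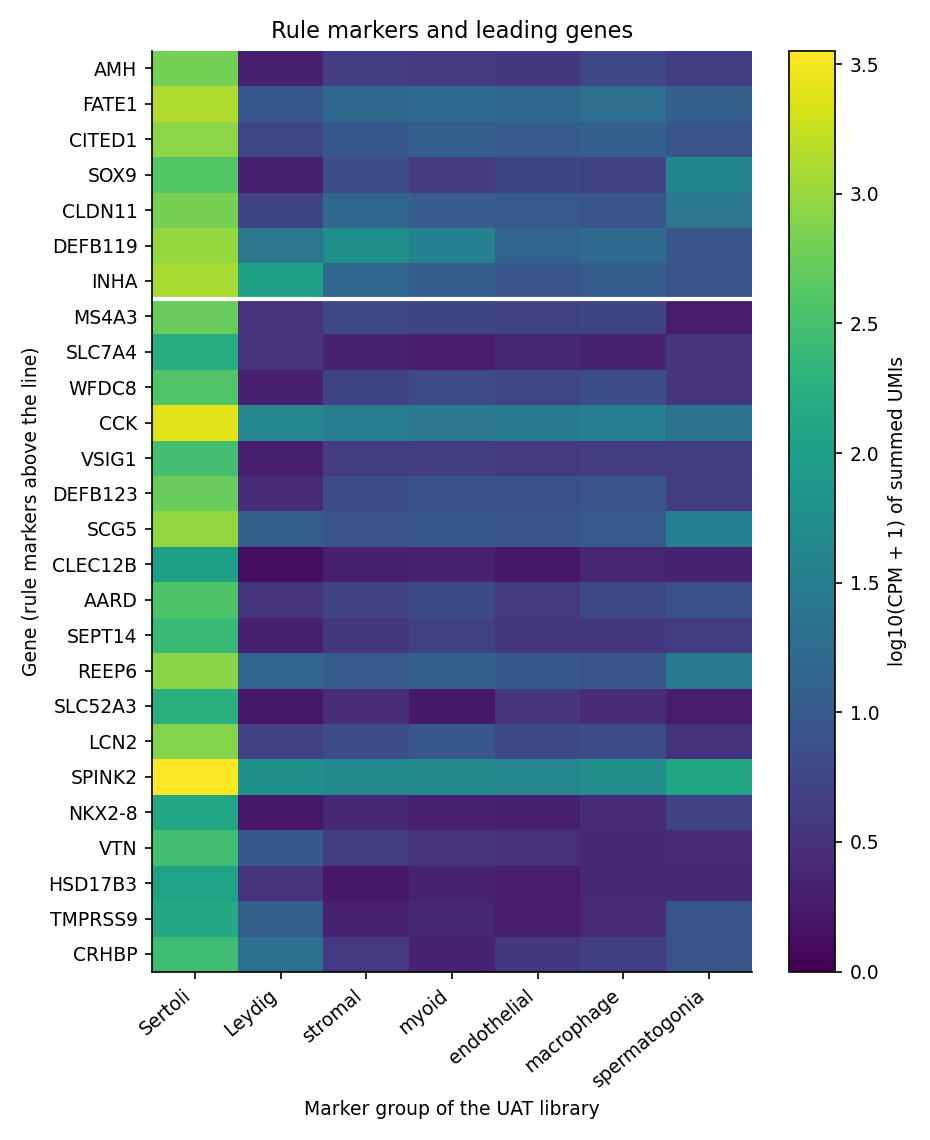
Level of the 7 rule markers (above the white line) and of leading genes in the UAT Sertoli cells and in 6 other marker groups of the same library, as log10(CPM + 1) of summed UMIs. The Sertoli column is the highest in every line, since these genes were chosen for it, and INHA in the Leydig group (106 CPM) and SPINK2 in the spermatogonia group (120 CPM) are the highest levels in the other columns.

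Several of the most abundant transcripts code for secreted proteins. TIMP1, an inhibitor of matrix metalloproteinases, stood at 5810 CPM in Sertoli cells and 1486 CPM in the rest. GSTM3, a glutathione transferase counted here with the antioxidant enzymes, stood at 5550 against 834 CPM, and the Leydig group had 6088 CPM. CLU, the chaperone clusterin and a classic Sertoli product, had 5037 against 352 CPM (14.3-fold), APOA1, the main protein of high-density lipoprotein, 4192 against 371 CPM, and PTGDS, prostaglandin D synthase, 2876 against 1021 CPM. The peritubular myoid group had 2728 CPM of PTGDS, near the Sertoli level. SERPINA5, the protein C inhibitor of seminal plasma, had 1572 against 74.1 CPM, and CTSV, a cysteine cathepsin, 524 against 11.7 CPM.

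Of the 33 genes on the list of Sertoli secreted proteins, 30 matched a feature and 22 were tested. Among them 11 were called higher and 5 lower than the rest of UAT, with a median log2 ratio of 1.05, against 17.4%, 25.6% and -0.14 over all 8309 features. DEFB119 among the 11 is a marker of the rule. The 5 lower ones, GSN, TIMP3, MMP2, A2M and B2M, are genes of stroma, vessels or all nucleated cells. The plasminogen activator PLAT stood at 257 CPM in Sertoli cells, 12.8-fold above the rest.

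The hormone axis of the Sertoli cell was present at the RNA level. INHBB, the beta chain that pairs with INHA in inhibin B, stood at 114 CPM in Sertoli cells and 5.35 CPM in the rest (21.4-fold, 19.3 to 23.7), whereas INHBA, the other beta chain, stood at 11.4 against 85.2 CPM. FSHR, the receptor for follicle-stimulating hormone, had 43.6 against 0.729 CPM (59.7-fold, 46.6 to 77.5), and 35.9% of the cells had a UMI of it. FSTL3, which binds activin, had 180 against 26.6 CPM. IGF1R had 131 against 68.0 CPM.

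Of 24 hormones and receptors, 16 were tested, 5 were called higher and 5 lower, against 17.4% and 25.6% of all features. The 5 higher were AMH and INHA, whose call the rule fixed, and INHBB, FSTL3 and FSHR. Among the lower ones were TGFBR3, the inhibin co-receptor betaglycan, at 44.5 against 571 CPM, and the glucocorticoid receptor NR3C1 at 62.1 against 184 CPM.

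Transcription factors of the somatic gonad were present as well. HOPX, a homeodomain protein of mature Sertoli cells, stood at 610 CPM in Sertoli cells and 23.8 CPM in the rest (25.6-fold), and NR0B1, the orphan receptor DAX1, at 54.3 against 1.51 CPM (36.0-fold). WT1, which keeps Sertoli identity, had 156 against 36.1 CPM, GATA4 106 against 41.2 CPM, GATA6 76.4 against 8.83 CPM and DMRT1 67.3 against 14.7 CPM. WT1 was not highest in Sertoli cells, since the UAT endothelial group had 163 CPM of it. DMRT1 is also a spermatogonial gene, at 264 CPM in the UAT spermatogonia group. Of 24 factors, 18 were tested, 8 were called higher and 5 lower, against 17.4% and 25.6% of all features. SOX9 and CITED1 among the 8 were fixed by the rule. NR2F2, a factor of stromal and Leydig precursors, stood at 63.5 against 811 CPM. GATA1, a factor of the mature mouse Sertoli cell, had 0 UMIs, which allows up to 0.247 CPM.

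Few classic niche ligands reached 20 CPM. Of 31 ligands known to act on spermatogonia or their surroundings, 7 did so in Sertoli cells, and of 19 tested 2 were called higher and 14 lower than in the rest of UAT, against 17.4% and 25.6% of all features (median log2 ratio -1.84). DHH, desert hedgehog, which Sertoli cells send to Leydig and peritubular cells, stood at 47.8 CPM, 15.9-fold above the rest (13.8 to 18.4), and PDGFA at 23.1 against 8.94 CPM. KITLG, the ligand of the KIT receptor, stood at 81.1 against 64.6 CPM, and the endothelial group had 159 CPM. GDNF, the ligand that maintains spermatogonial stem cells, had 0 UMIs in the 803 cells, which allows up to 0.247 CPM and 0.374% of cells with a UMI. FGF8 and NRG3 were also at 0 UMIs, FGF2 was at 3.95 against 50.5 CPM and CXCL12 at 13.6 against 185 CPM. In the UAT spermatogonia group the GDNF receptor genes GFRA1 and RET each stood at 13.4 CPM. ERBB4, a neuregulin receptor, had 33.8 against 2.03 CPM, and BMPR1B, which the spermatogonia group had at 117 CPM, stood at 59.4 against 7.80 CPM.

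Of 47 genes of the blood-testis barrier and other junctions, 42 matched a feature and 21 reached 20 CPM in Sertoli cells. Of the 24 tested, 12 were called higher and 6 lower than in the rest of UAT, against 17.4% and 25.6% of all features (median log2 ratio 0.96), and CLDN11 among the 12 is a marker of the rule. CXADR, a junctional adhesion protein, stood at 129 CPM in Sertoli cells and 4.93 CPM in the rest, CDH2, N-cadherin, at 366 against 22.9 CPM, JAM2 at 342 against 59.0 CPM and GJA1, the gap junction protein connexin, at 171 against 23.4 CPM. The polarity gene PARD6B (21.6 against 1.43 CPM) and the tight junction linker CGN (20.1 against 0.517 CPM) were low in level. TJP1 stood at 352 against 271 CPM. Among the 6 lower were the endothelial genes CLDN5 and ESAM, and CLDN1, ITGB1, CTNNA1 and EPS8.

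Keratins of immature or dedifferentiated Sertoli cells were found in a minority of cells. KRT8 stood at 152 against 3.01 CPM and had a UMI in 40.0% of cells, and KRT18 at 128 against 6.91 CPM in 25.3%. Shallow cells can miss a gene at such levels, and WT1, at a like level of 156 CPM, had a UMI in 58.9% of cells. The 5 cells with most KRT18 held 26.3% of its UMIs, against 4.69% for WT1 and 4.29% for CLDN11. VIM, the intermediate filament of Sertoli and mesenchymal cells, stood at 1321 against 3683 CPM, and the stromal group had 4056 CPM.

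Among genes of lactate and glucose supply, HK2, a hexokinase, stood at 213 CPM in Sertoli cells and 13.6 CPM in the rest (15.7-fold), SLC16A1, a lactate transporter, at 64.3 against 17.3 CPM, and BSG, its chaperone basigin, at 547 against 159 CPM. These were the 3 called higher of 16 tested, a share near the 17.4% of all features, and 2 were called lower. The glycolytic enzymes GAPDH (903 against 634 CPM) and ENO1 (325 against 184 CPM) were not called, nor was LDHA, lactate dehydrogenase (68.2 against 131 CPM). For engulfing dying germ cells, TYRO3, a receptor of the TAM family, had 52.9 against 6.96 CPM, and its bridging ligand GAS6 had 648 against 192 CPM. The related receptors MERTK (51.2 against 44.7 CPM) and AXL (65.0 against 55.8 CPM) were at levels near those of the rest, and 4 of 25 tested genes of that list were called higher and 5 lower, shares near or under the 17.4% and 25.6% of all features.

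ALDH1A1 stood at 934 CPM in Sertoli cells and 198 CPM in the rest, and ALDH1A2 at 119 against 9.60 CPM. These enzymes make retinoic acid, and they were the 2 called higher of 10 tested retinoid genes, a share near the 17.4% of all features. CYP26B1, which breaks retinoic acid down, stood at 32.8 against 282 CPM, and the stromal group had 376 CPM. FABP3, a fatty acid carrier, had 319 against 15.9 CPM, and DHCR7, the last enzyme of cholesterol synthesis, 75.1 against 4.21 CPM.

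Steroid enzymes did not all follow the Leydig group. STAR, HSD3B2, CYP17A1 and INSL3 are among the 5 markers that chose that group, so their levels in it depend on that choice. HSD17B3 is not one of them. HSD17B3, which makes testosterone from androstenedione, stood at 111 CPM in Sertoli cells, 2.48 CPM in the 140 cells of the Leydig group and 1.91 CPM in all other UAT barcodes. HSD3B2 stood at 124 CPM in Sertoli cells and 17.3 CPM in the Leydig group, and STAR, which moves cholesterol into mitochondria, at 86.1 and 883 CPM. CYP17A1 had 107 CPM in Sertoli cells, 7105 CPM in the Leydig group, 42.1 CPM in the stromal group and 251 CPM in all other barcodes. INSL3, which the rule limits, had 73.4 CPM in Sertoli cells against 375 CPM in the stromal group and 56227 CPM in the Leydig group. The 5 Sertoli cells with most INSL3 held 54.8% of its UMIs in these cells.

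RNA of other cell types was measured in the same cells. The summed stromal markers stood at 905 CPM in Sertoli cells, 10276 CPM in the other UAT barcodes and 18214 CPM in the stromal group, and 5 Leydig markers at 392, 2380 and, in the Leydig group, 64543 CPM. Peritubular myoid markers summed to 282 against 2125 CPM, macrophage markers to 269 against 862 CPM and endothelial markers to 96.0 against 808 CPM. Pericyte markers summed to 255 against 362 CPM, with RGS5 at 228 against 177 CPM and 5 of the 7 at 10 CPM or less. Markers of rete or epididymal epithelium summed to 61.7 against 50.6 CPM, with WFDC2 at 38.8 against 5.12 CPM and 7 of the 8 at 10 CPM or less. T or NK, mast, erythroid and B or plasma markers summed to between 0.988 and 16.1 CPM, 13 spermatid markers to 7.57 CPM and 10 spermatocyte markers to 14.1 CPM. Of the 8 macrophage markers, C1QA, C1QB, C1QC, CSF1R and CD68 were at 10 CPM or less. MRC1 made up 145 CPM of the sum, against 65.0 CPM in the rest, and CD14 67.6 against 105 CPM. Spermatogonial markers summed to 378 against 237 CPM, from ID4 (206 CPM), DAZL (81.7 CPM) and DMRT1, with 9 of the 12 at 10 CPM or less, including DDX4 (2.31 CPM), MAGEA4 (1.07 CPM) and FGFR3 (0.247 CPM). The part of this RNA in the results was not tested.

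**Figure D3:**
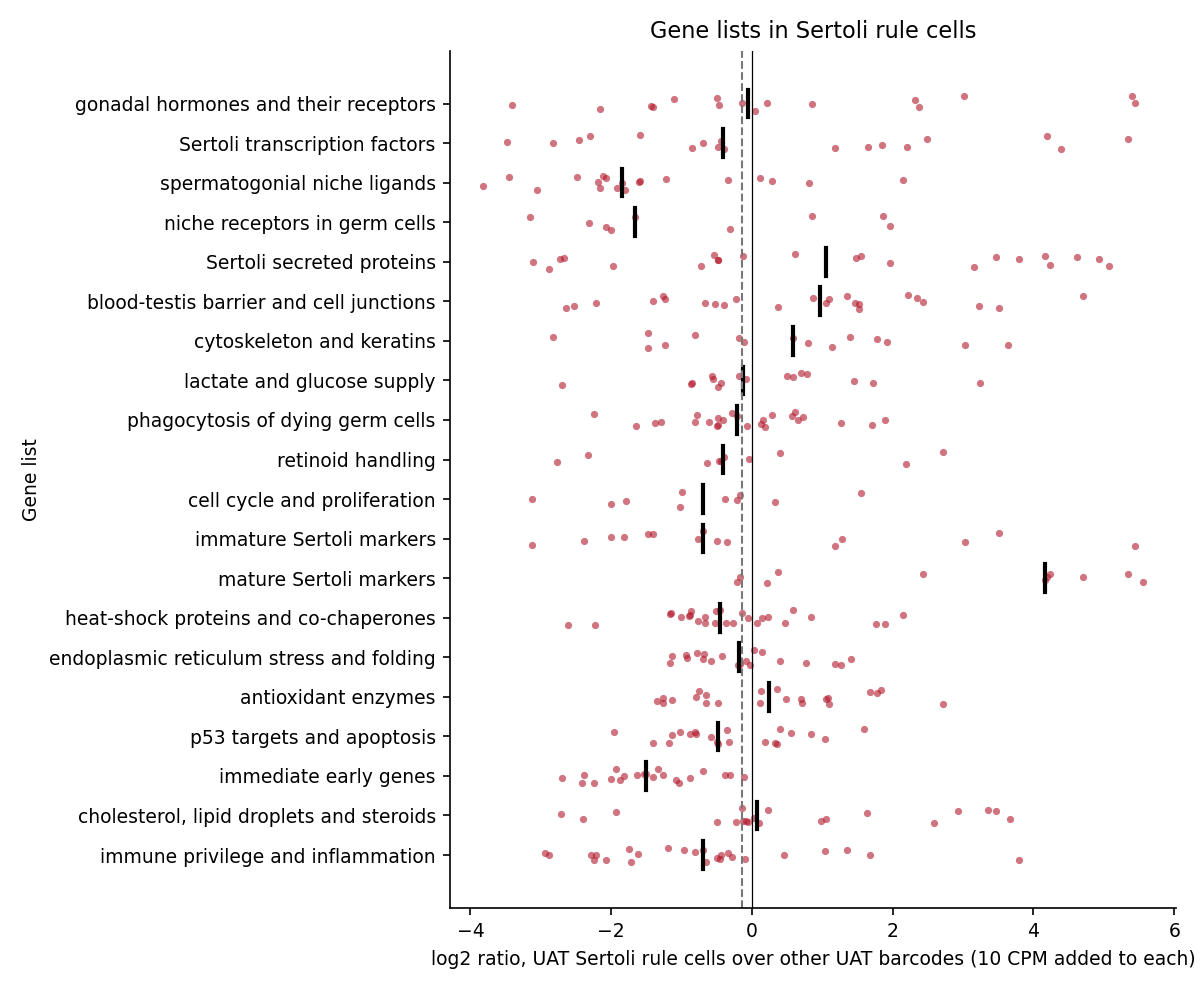
Each point is 1 tested gene, placed by its log2 ratio of UAT Sertoli cells over the other UAT barcodes with 10 CPM added to each; rows are gene lists with their medians as black bars, and the dashed line is the median over all 8309 tested features (-0.14). Mature Sertoli markers have a median of 4.16, which is the value of DEFB119, and 4 of their 11 genes are markers of the rule, as is 1 of the secreted and 1 of the barrier genes; secreted proteins have a median of 1.05 and barrier genes of 0.96, while immediate early genes (-1.50) and niche ligands (-1.84) lie below the dashed line.

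Markers of mature and immature Sertoli cells were both found, and part of each list is the rule itself. Of 11 tested mature markers 7 were called higher and 0 lower, and 4 of those 7 (FATE1, CITED1, DEFB119 and CLDN11) are markers of the rule, as is AMH on the other list. Of 15 immature markers 5 were called higher, namely AMH, CDH2, KRT18, SOX4 (534 against 214 CPM) and GATA4, and 6 lower, among them VIM, JUN, FOS and CCND2. Of 10 tested genes of the cell cycle 1 was called higher and 5 lower, against 17.4% and 25.6% of all features. The proliferation genes TOP2A (3.95 against 15.0 CPM) and CCNB1 (2.06 against 6.31 CPM) stayed under 20 CPM in both groups, as did AURKA (11.3 against 6.94 CPM). The cell cycle inhibitors CDKN1C (314 CPM), CDKN1A (111 CPM) and CDKN1B (77.9 CPM), the brake RB1 (184 against 56.4 CPM) and the replication clamp PCNA (49.0 against 67.0 CPM) were the 5 of that list at 20 CPM or more.

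Heat-shock, folding and antioxidant genes were called in both directions against the rest of UAT, and immediate early genes only lower. Of 27 tested heat-shock genes 3 were called higher and 5 lower, against 17.4% and 25.6% of all features, with HSPA4 (319 against 87.2 CPM), AHSA1, an HSP90 activator (295 against 72.1 CPM), and the small chaperone CRYAB (301 against 60.3 CPM) higher, and HSPB1 (106 against 703 CPM) and HSP90AA1 (858 against 1733 CPM) lower. The genes HSPA1A and HSPA1B matched no feature and were not analysed here. Of 20 genes of folding in the endoplasmic reticulum 3 were called higher, PDIA3 (869 against 355 CPM), PDIA6 (596 against 219 CPM) and CALR (894 against 390 CPM), and 5 lower. Of 22 antioxidant genes 7 were called higher, led by GSTM3 and HMOX1 (170 against 40.5 CPM), and 4 lower. All immediate early genes that were called, 17 of 21, were lower in Sertoli cells, such as FOS at 1125 against 4518 CPM, and 0 were called higher.

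The deep and the shallow cells differed in a small set of genes. At 100 CPM or more, 73 of 2246 features were called higher in the 337 deep cells than in the 382 shallow ones (3.25%) and 43 lower (1.91%). All 13 mitochondrial transcripts tested were among the 73. The stress-responsive factor ATF3 stood at 272 CPM in deep and 23.7 CPM in shallow cells (11.5-fold, 7.35 to 19.1), the phosphatase DUSP2 at 120 against 11.2 CPM, CYR61 at 169 against 27.4 CPM and JUNB at 1164 against 396 CPM. SPINK2 stood at 3216 CPM in deep and 6712 CPM in shallow cells, HOPX at 548 against 1207 CPM, WFDC8 at 332 against 867 CPM and DEFB123 at 492 against 1032 CPM. CXCL8 (19.3 against 131 CPM) and LYZ (27.8 against 115 CPM), a chemokine and a lysozyme of myeloid cells, were also lower in deep cells. Cells of 1 library are not replicates, and the limits of 10000 and 5000 UMIs were set after the depths were seen.

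Among genes with a mean of at least 0.1 UMI in cells thinned to 2000 UMIs, mitochondrial and LOC features aside, DCN varied most from cell to cell. The variance over the mean was 12.8 for DCN, a stromal proteoglycan, 8.32 for CFD and 6.18 for TMSB4X, against 1.57 for AMH and 1.45 for CITED1. The 5 cells with most CLEC3B held 41.4% of its UMIs, and the 5 with most DCN 16.0%. Across the 597 thinned cells DCN went with CLEC3B (Pearson's r 0.640), IGFBP6 (0.627) and COL3A1 (0.491), all stromal genes counted in the same cells. Among abundant Sertoli genes TIMP1 (5.38) and APOA1 (5.16) had the highest ratios of variance to mean, and they went together with r = 0.455. FATE1 and CITED1, both used by the rule, had r = 0.314.

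Sertoli cells of the abdominal testis were then set beside the CST cells under the same rule, to see which genes differ between the libraries. With 1 library per position, an effect of position cannot be told from any other difference between the libraries. These CST cells were few, and their RNA was mixed. Their 776946 UMIs included 184405 (23.7%) from 1 cell in which 10.1% of UMIs were of 13 spermatid markers. Spermatid markers took 0.000757% of summed UMIs in UAT Sertoli cells and 4.31% in the 67 CST cells, with a median of 0.749% per CST rule cell, against 0.347% in CST stromal cells and 0.299% in CST endothelial cells. In the 41 CST rule cells under 1% they took 0.312%. The doublet score marked 15 of the 67 CST cells (22.4%). Median depth was 5631 UMIs in UAT and 2751 UMIs in CST.

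Because of this, a direction is given only where 3 forms of the ratio passed 2-fold: all rule cells summed, the sum with the 41 CST cells under 1%, and the mean of per-cell CPM. Over all rule cells, 1051 of 8545 features were called higher in UAT (12.3%) and 2247 lower (26.3%), so that 31.9% of the called ones were higher. That share was 46.7% with mitochondrial and ribosomal protein genes left out of the totals, a scaling that moves the median of all features by log2 from 0.02 to 0.24, and 43.8% for the mean of per-cell CPM. In all 3 forms 277 features were higher (3.24%) and 1468 lower (17.2%). Of these, 140 higher ones were not below the rest of UAT and 131 lower ones not below the rest of CST.

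Immediate early genes were higher in the UAT Sertoli cells. Of 20 tested, 11 were higher in all 3 forms and 0 lower, against 3.24% and 17.2% of all features. FOS stood at 1125 CPM in UAT and 229 CPM in CST (ratio 4.91, 4.23 to 5.72; 3.11 against CST cells under 1%; 5.83 for the mean over cells). JUN stood at 1161 against 284 CPM (4.08, 3.57 to 4.68), JUNB at 1091 against 275 CPM (3.96, 3.46 to 4.56), ZFP36, which destabilises their mRNAs, at 772 against 153 CPM (5.04, 4.21 to 6.09) and EGR3, from 4 CST UMIs, at 80.9 against 5.15 CPM (15.7, 6.11 to 57.8). Summed over the list the level was 6833 CPM in UAT Sertoli cells and 1946 CPM in CST, against 21596 CPM in the rest of UAT. Of 21 tested against that rest, 17 were called lower in Sertoli cells, among them FOS, JUN, JUNB and ZFP36. Genes called lower there are outside the 140 higher features not below the rest of UAT. The part of RNA from other UAT cells in their levels was not tested.

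Summed over the list, deep cells had 7201 CPM in UAT and 2778 CPM in CST, and shallow cells 3167 against 1037 CPM. In deep cells FOS stood at 1169 CPM in UAT and 380 CPM in the 11 deep CST cells under 1%, and in shallow cells at 565 CPM against 53.6 CPM, or 3 UMIs, in the 24 shallow CST cells. In the stromal groups FOS stood at 4659 CPM in UAT and 3411 CPM in CST, and in the endothelial groups at 5257 against 2757 CPM. The part of depth and of the library at large in the difference was not tested. The p53 target BTG2, another early response gene, stood at 201 against 27.0 CPM (ratio 7.42, lower bound 4.84) in Sertoli cells and at 407 against 293 CPM in stromal cells.

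The cold-inducible RNA-binding gene RBM3 was lower in the UAT Sertoli cells. It stood at 89.0 CPM in UAT and 237 CPM in CST (ratio 0.376, 0.321 to 0.442), with 0.287 against the CST cells under 1% and 0.295 for the mean over cells. Deep cells had 83.4 against 264 CPM and shallow cells 126 against 393 CPM. The same order was seen in the stromal groups (124 CPM in UAT and 458 CPM in CST) and the endothelial groups (133 CPM in UAT and 401 CPM in CST). CIRBP, its relative, stood at 297 against 485 CPM (0.612, 0.550 to 0.682), short of 2-fold, and SRSF5 at 179 against 180 CPM (0.994, 0.837 to 1.19).

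Heat-shock genes had no common direction between the libraries. Of 28 tested, 1 was higher and 3 lower in all 3 forms, against 3.24% and 17.2% of all features. The higher one, HSPB8, rested on 4 UMIs in CST (25.8 against 5.15 CPM), and the lower ones were BAG1, FKBP4 and HSPA1L. HSPD1, the mitochondrial chaperone, stood at 351 against 171 CPM (2.05, 1.72 to 2.45) but at 1.26 against the CST cells under 1%. HSPA8 had a ratio of 1.85 (1.65 to 2.07) and 1.37 in that form, HSP90AB1 1.78 (1.60 to 1.98) and 1.42, and HSP90AA1 1.08 (0.996 to 1.17) and 1.11. CRYAB stood at 301 against 74.7 CPM in all cells, at 298 against 14.1 CPM in deep cells, and at 313 against 465 CPM in shallow cells.

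AMH and INHA had ratios of summed UMIs near 1 once CST cells rich in spermatid RNA were left out. AMH stood at 652 CPM in UAT and 416 CPM in CST (1.57, 1.40 to 1.76). Its ratio was 1.01 against the CST cells under 1% and 1.73 for the mean over cells. AMH had 688 against 820 CPM in deep cells and 439 against 250 CPM in shallow cells, in opposite directions. INHA had ratios of 1.52 (1.40 to 1.65), 1.02 and 1.19 in the same 3 forms, and FATE1 0.753 (0.713 to 0.797), 0.532 and 0.669. These 3 belong to the rule in both libraries. FSHR stood at 43.6 against 19.3 CPM (2.26, 1.36 to 4.06) and at 1.29 against the CST cells under 1%, and INHBB at 114 against 37.3 CPM (3.06, 2.12 to 4.59) and at 1.69. Of 11 mature markers 0 were higher or lower in all 3 forms. Over all features 3.24% were higher and 17.2% lower in these forms. FATE1, CITED1, DEFB119 and CLDN11 among the mature markers chose the cells, so their levels in both libraries depend on the rule. Of 14 immature markers 5 were higher, JUN, FOS, JUNB, FOSB and EGR3, which are all on the list of immediate early genes as well.

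Of 20 tested immune genes, 3 were lower and 3 higher in all 3 forms, against 17.2% and 3.24% of all features. The lower ones are interferon-stimulated, as is IRF1 among the higher ones. IFI6 stood at 499 CPM in UAT and 1013 CPM in CST (0.492, 0.457 to 0.531; 0.318 against the CST cells under 1%; 0.223 for the mean), ISG15 at 14.6 against 72.1 CPM (0.202, 0.149 to 0.278) and MX1 at 6.83 against 21.9 CPM (0.312, 0.184 to 0.562). IFI6 had 493 against 1032 CPM in deep and 565 against 3952 CPM in shallow cells, and 387 against 648 CPM in the stromal groups. The higher ones were CXCL8 (26.7 against 2.57 CPM, from 2 CST UMIs), TGFB1 and IRF1 (34.3 against 15.4 CPM). The germ cell lactate dehydrogenase LDHC (2.80 against 472 CPM) led the 5 lower of 19 lactate and glucose genes, and it stood at 5.50 against 241 CPM in stromal cells.

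Beyond the lists, 12 genes at 100 CPM or more led the higher side. LYNX1, a regulator of nicotinic receptors, stood at 106 CPM in UAT and 3.86 CPM in CST, from 3 CST UMIs (27.4-fold, 9.35 to 133). TNFRSF12A, the receptor of the cytokine TWEAK, had 108 against 7.72 CPM (13.9, 6.38 to 38.0), the growth factor MDK 193 against 20.6 CPM (9.39, 5.77 to 16.5) and the actin linker PDLIM4 127 against 20.6 CPM (6.15, 3.77 to 10.8). TNFRSF12A stood at 46.1 CPM in shallow UAT cells and 71.5 CPM in shallow CST cells. PPIF, the mitochondrial cyclophilin, had 176 against 48.9 CPM (3.60, 2.61 to 5.10), with 176 against 81.0 CPM in deep and 181 against 35.8 CPM in shallow cells, and 13.4 CPM in the rest of UAT. RNASE1, NEDD9, TTC27, FAT1, UPF2, RDX and ATP2B4 were the others, with ratios from 3.58 to 4.35.

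On the lower side the leading 12 genes were SCP2D1, TEX29, TP53TG5, TEX33, CCDC185, HEMGN, WBSCR28, TEKT5, SMCO1, SLFNL1, DNAJC4 and FAM134B. They ranged from 0 to 16.9 CPM in UAT Sertoli cells and from 135 to 364 CPM in the CST cells. Several are known from developing sperm, such as TEKT5, a tektin of the sperm tail, and spermatid markers took 4.31% of UMIs in the same CST cells, whose part in these values was not tested.

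**Figure D4:**
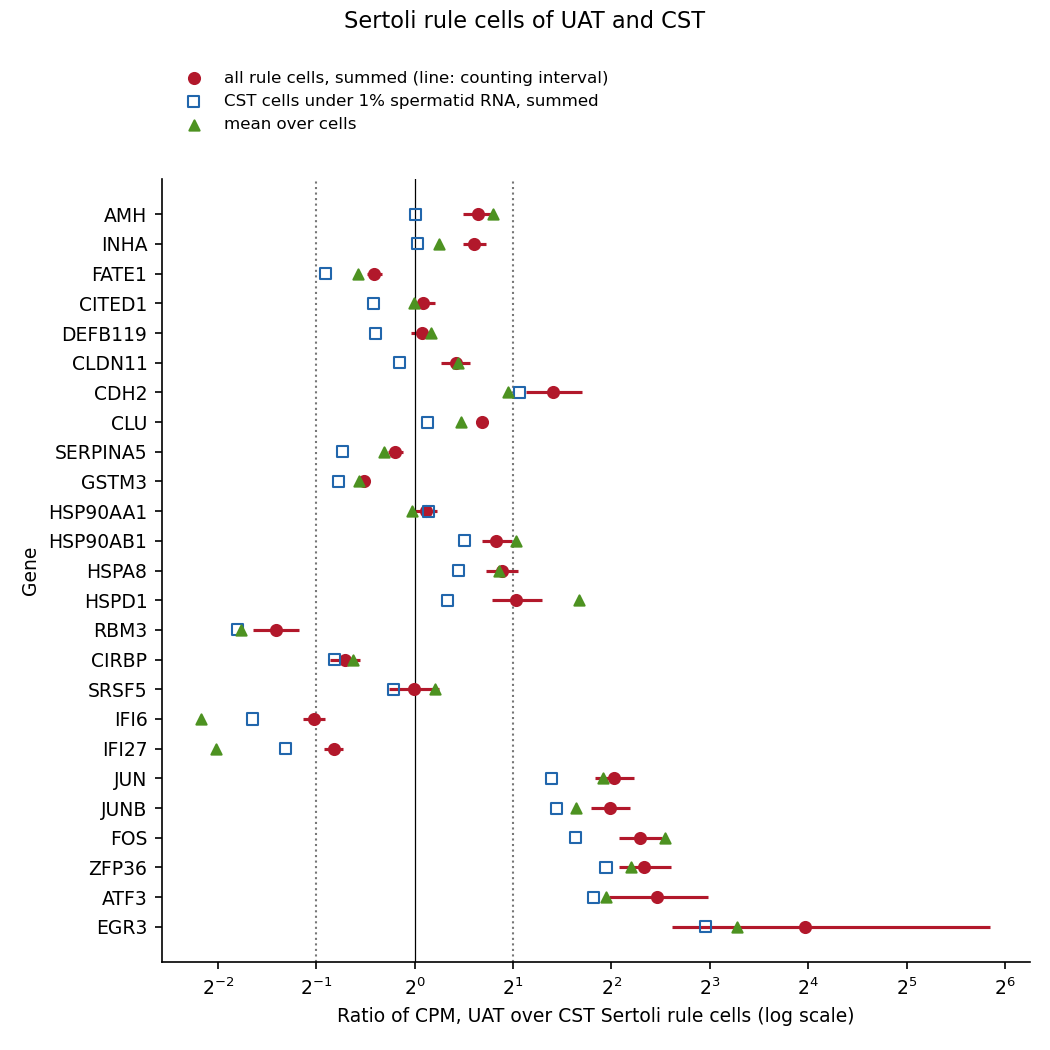
Ratio of CPM, UAT over CST Sertoli rule cells, on a log scale for 25 genes of the rule, secretion, heat-shock, cold-inducible, interferon and immediate early lists. Circles are all rule cells summed with 95% counting intervals, squares use the 41 CST cells under 1% spermatid RNA and triangles are means over cells; dotted lines mark 2-fold. The 6 immediate early genes lie above 2-fold and RBM3 below it in all 3 forms, and the squares of AMH (1.01) and INHA (1.02) lie near 1.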

How the data were processed

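UMI counts per gene and barcode were measured in 1 library of each testis position. The matrices hold raw counts as deposited by the authors, written by Cell Ranger 5.0.0 per the file headers. Version 3.0.1 and mm10, a mouse build, are given in the submitters' processing notes, while the feature names include macaque LOC numbers, so the build is unsettled and no coordinates are given. Of 28845 features 11526 were LOC numbers, 5093 were found in the reference table and 721 were given its symbol, while 67 kept their number because the symbol was in use.

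Barcodes with 500 detected genes were kept. Doublets were scored against simulated ones and removed only as an alternative, at 0.8% per 1000 barcodes. Other cell types are groups with at least 3 markers of 1 class. UMIs were summed per group and scaled to CPM, and log2 ratios had 10 CPM added to each side. Python 3.11.15, numpy 2.4.6, scipy 1.17.1, pandas 2.3.3, scikit-learn 1.9.0 and matplotlib 3.10.9 were used, and the ratios and calls were tested on simulated data. Cells are not replicates, so no p-value is given.

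Named genes were the rule markers, the 20 with the highest lower bound against the rest of UAT, the 10 with the lowest upper bound, the 15 most abundant, list members by level and fold, and the 10 most variable; some genes that this rule names are not reported here. The members and lists were chosen with earlier results of these data known. The depth limits, the use of 3 forms of the ratio and the choice of the 12 genes on each side of the UAT and CST comparison were set after values were seen. Those 12 had the most extreme interval bound among features at 100 CPM or more that passed all 3 forms and were not below the rest of their own library. Further genes named in that comparison were picked from the lists after their values were seen.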

Additional observations from a re-analysis of the deposited data

How the results depend on the processing

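The share of Sertoli cells in UAT was 5.56% with 1000 detected genes, 7.23% with a marker sum of 5 and 5.82% with a sum of 20 per 10000 UMIs, and 4.34% with at most 10% mitochondrial UMIs. In CST it was 0.273% when cells had to be under 1% spermatid RNA. Against the rest of UAT, 3730 features were lower at a 5 CPM minimum, and 613 were higher and 593 lower at 100 CPM. For UAT over CST, 368 features were higher and 1117 lower against CST cells under 1% spermatid RNA, 392 and 1015 with doublets removed, 460 and 1008 in cells with at least 10000 UMIs, and 301 and 1021 in cells with under 5000 UMIs. Without the deepest CST cell 552 were higher, and without mitochondrial and ribosomal protein genes 1942. The log2 ratio of INSR was -0.17 for the mean of per-cell CPM, and those of CRYAB (-0.56) and TNFRSF12A (-0.54) were negative in cells with under 5000 UMIs, and the cause was not tested. For the other log2 ratios, a named gene was counted once per alternative setting. Only part of the named genes entered this count for UAT over CST. Of these gene and setting pairs, 807 moved by more than their counting interval and 1468 did not against the rest of UAT. For UAT over CST 264 pairs moved and 153 did not. All these pairs kept their direction where called. The mean over cells, the depth groups, the deepest cell and the scaling without mitochondrial genes were alternatives chosen after seeing the data. No paired analysis was possible because each position had 1 library. Depth limits the UAT over CST ratios of low genes, since the 67 CST cells held 776946 UMIs and EGR3 and HSPB8 rest on 4 of them each.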
